A study of Homo sapiens with 20 samples.

Results

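Keratin genes were followed through 8 groups of RNA-seq libraries from Panc1, a cell line from a pancreatic ductal carcinoma, and A549, a cell line from a lung adenocarcinoma. They were taken as every row of the count tables named KRT followed by digits and at most 1 capital letter, without the keratin-associated proteins and without 1 row that names a pseudogene (KRT42P). That gave 55 of 23368 genes, of which 28 encode type I and 26 encode type II keratins, while KRT222 was assigned to neither type. In each line the groups were siKLF10+TGFβ (an siRNA against KLF10, with TGFβ), siKLF10 (that siRNA alone), TGFβ, and siCont (a control siRNA). The labels of the TGFβ group name no siRNA. The TGFβ dose was 5 ng/ml, applied over 72 h, and the labels list both lines as immortalized with SV40 large T antigen. Each group had 3 libraries in Panc1 and 2 in A549, lettered A, B and C. The labels do not say that the libraries of a group were grown as separate cultures, and p-values here thus reflect library-to-library spread that may be technical.

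Keratins are the intermediate filament proteins of epithelial cells. A type I chain pairs with a type II chain, and the pairs build filaments that anchor to desmosomes and hemidesmosomes. KRT8 and KRT18 form the pair of simple, single-layered epithelia, KRT19 and KRT7 are added in ducts and airways, KRT5, KRT14 and KRT15 mark basal cells of layered epithelia, KRT6A, KRT6B, KRT16 and KRT17 are induced in wounded or activated epidermis, and another set builds hair and nail. TGFβ is a classical trigger of the epithelial-to-mesenchymal transition, in which epithelial cells lose keratins and gain vimentin, and KLF10 is a zinc-finger transcription factor that TGFβ induces.

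Panc1 libraries held 11152625 to 15571367 counts in genes and A549 libraries 6846761 to 19070551, so 3 counts, the floor used here, came to 0.157 to 0.438 CPM, where CPM are counts scaled to the gene total of the library. Levels below are plain CPM per library or group means ± SD (n = 3 in Panc1, n = 2 in A549), and intervals from counting were not added to them. KLF10, the targeted gene, measured 98.1, 98.9 and 101 CPM in Panc1 siKLF10+TGFβ, 86.9, 84.1 and 81.3 CPM in siKLF10, 188, 184 and 201 CPM in TGFβ, and 138, 137 and 131 CPM in siCont. It measured 145 and 138 CPM in A549 siKLF10+TGFβ, 103 and 112 CPM in siKLF10, 174 and 176 CPM in TGFβ, and 113 and 111 CPM in siCont. In A549 KLF10 did not pass the test between siKLF10 and siCont (log2 fold change −0.05 ± 0.0802, adjusted p = 0.743), so these are called the libraries labelled siKLF10. Markers of lung epithelium were near 0 in A549, where 6 of them summed to 0.876 to 2.60 CPM per library, and 5 pancreatic acinar and islet markers summed to at most 0.157 CPM in Panc1.

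The bases just before the annotated start of 4 keratin genes are printed here because these genes show the range of behaviour that follows: KRT4 fell and KRT79 rose under TGFβ in A549, KRT5 was highest in Panc1 siCont, and KRT10 lay between 25.5 and 51.2 CPM in all 20 libraries. Each run is the 250 bases upstream of the start, from RefSeq (GRCh38.p14), given 5′ to 3′ on the strand of the gene; 34 of the 55 keratins had a window in that table. Capitals mark matches to CAGGTG, an E-box that the SNAI and ZEB repressors can bind, to CAGAC, a SMAD element, to CACCC, a core bound by Krüppel-like factors, each sought on both strands, and to TATAAA, sought on the gene's strand. TGANTCA, the AP-1 site, was also sought on both strands and had no match in these 4 runs.
KRT4, chr12:52814117-52814366, minus strand: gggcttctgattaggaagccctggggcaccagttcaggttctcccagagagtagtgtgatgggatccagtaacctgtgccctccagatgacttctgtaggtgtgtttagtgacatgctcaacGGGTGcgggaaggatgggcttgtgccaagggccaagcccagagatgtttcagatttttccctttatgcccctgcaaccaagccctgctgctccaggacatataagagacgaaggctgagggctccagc
KRT79, chr12:52834312-52834561, minus strand: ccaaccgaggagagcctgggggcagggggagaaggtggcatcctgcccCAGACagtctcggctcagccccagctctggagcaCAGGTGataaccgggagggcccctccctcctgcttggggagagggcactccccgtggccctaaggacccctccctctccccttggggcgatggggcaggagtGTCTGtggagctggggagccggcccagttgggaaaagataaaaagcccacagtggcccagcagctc
KRT5, chr12:52520395-52520644, minus strand: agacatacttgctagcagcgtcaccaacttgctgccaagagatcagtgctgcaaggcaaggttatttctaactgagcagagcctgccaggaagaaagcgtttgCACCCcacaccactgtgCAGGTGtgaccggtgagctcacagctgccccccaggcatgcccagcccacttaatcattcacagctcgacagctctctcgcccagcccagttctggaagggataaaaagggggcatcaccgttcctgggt
KRT10, chr17:40822615-40822864, minus strand: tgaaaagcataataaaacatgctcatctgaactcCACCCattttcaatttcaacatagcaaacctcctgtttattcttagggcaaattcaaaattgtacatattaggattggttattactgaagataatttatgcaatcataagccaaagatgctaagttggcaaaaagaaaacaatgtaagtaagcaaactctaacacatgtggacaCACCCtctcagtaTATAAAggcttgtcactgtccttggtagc

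The KRT79 run held 1 E-box match, its first base 168 bases before the start, and 2 CAGAC matches. The KRT5 run held 1 E-box match at 130 bases before the start and 1 CACCC match, the KRT4 run held 1 CACCC match, and the KRT10 run held 2 CACCC matches and 1 TATA box. Among all 35116 windows of the same length in the table, CAGGTG was present in 17.5%, CAGAC in 38.0%, TGANTCA in 6.57%, CACCC in 54.7% and TATAAA in 6.8%. These matches describe letters and were not tested as binding sites.

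Few members of the family reached 5 CPM, and the 2 lines differed in which did. Of the 55 keratins, 15 averaged at least 5 CPM in at least 1 group, 7 had no count in any library and 25 had 1 to 9 counts at most in any library. All 55 together summed to 817 ± 68.6 CPM in Panc1 siKLF10+TGFβ, 1056 ± 45.8 CPM in siKLF10, 542 ± 18.2 CPM in TGFβ and 1066 ± 95.1 CPM in siCont. In A549 they summed to 6751 ± 521 CPM in siKLF10+TGFβ, 8903 ± 338 CPM in siKLF10, 7846 ± 292 CPM in TGFβ and 8560 ± 118 CPM in siCont. Each of the 4 Panc1 groups had a lower sum than any A549 group.

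To compare genes with each other, CPM were divided by the length of the shortest principal transcript in GENCODE v29, an annotation other than the one used for counting. On this CPM per kb scale KRT8 led in Panc1 siCont with 264.5 ± 24.4 CPM per kb, followed by KRT19 with 161 ± 8.40 and KRT18 with 141 ± 8.01, and neighbours in that order did not overlap between libraries. KRT10, KRT5 and KRT80 followed with 13.2 to 15.6 CPM per kb and overlapped one another. In A549 siCont KRT8 led with 1463 ± 18.6 CPM per kb, KRT18 and KRT7 overlapped at 1306 ± 28.2 and 1289 ± 9.79, and the hair keratin KRT81 was next with 792 ± 25.3. With TGFβ the A549 order was KRT7 at 2282 ± 129, KRT81 at 994 ± 92.2, KRT8 at 524 ± 22.5 and KRT18 at 489 ± 45.5 CPM per kb, with the last pair overlapping. These orders rest on the length used. With all annotated exons counted as a gene's length, KRT8 measured 101 CPM per kb in Panc1 siCont, came after KRT19 and overlapped KRT18 at 99.8. In A549 siCont the order by that length was KRT7 at 1289, KRT18 at 923, KRT81 at 792 and KRT8 at 560 CPM per kb, with no overlap between neighbours. In A549 TGFβ KRT7 and KRT81 kept their places by that length, and KRT18 at 346 CPM per kb came before KRT8 at 201 without overlap.

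The make-up of the keratin RNA shifted with TGFβ in both lines. In A549 KRT7 made up 51.95 ± 1.13% of keratin CPM per kb in TGFβ, against 26.0 ± 0.551% in siCont, while KRT8 made up 11.9 ± 0.928% in TGFβ and 29.45 ± 0.0278% in siCont. The ratio of type I to type II keratins per kb was 0.159 ± 0.0204 in A549 siKLF10+TGFβ, 0.345 ± 0.0144 in siKLF10, 0.132 ± 0.0170 in TGFβ and 0.367 ± 0.00404 in siCont. The A549 libraries with TGFβ did not overlap those without it. In Panc1 the ratio was 0.690 ± 0.0744 in siKLF10+TGFβ, 1.03 ± 0.0470 in siKLF10, 0.959 ± 0.0236 in TGFβ and 1.12 ± 0.0991 in siCont. KRT19, the type I chain of ducts, made up 5.99 ± 0.364% of Panc1 keratin CPM per kb in siKLF10+TGFβ, 22.3 ± 0.357% in siKLF10, 13.1 ± 0.679% in TGFβ and 25.2 ± 2.13% in siCont. These values also rest on the length used. With all annotated exons as length, the Panc1 ratio was 1.30 ± 0.121 in siKLF10+TGFβ, 2.08 ± 0.0766 in siKLF10, 1.725 ± 0.0446 in TGFβ and 2.11 ± 0.261 in siCont. The excess of type II over type I in siKLF10+TGFβ thus turned into an excess of type I, while siKLF10+TGFβ had the lowest mean of the 4 groups by either length. By that length the KRT19 share was 10.7 ± 0.780% in siKLF10+TGFβ, 34.9 ± 0.411% in siKLF10, 20.6 ± 1.07% in TGFβ and 37.2 ± 3.16% in siCont. The A549 share of KRT7 was then 58.2 ± 0.624% in TGFβ and 35.1 ± 0.723% in siCont, and that of KRT8 was 5.125 ± 0.455% in TGFβ and 15.2 ± 0.00493% in siCont. No test was run on these ratios and shares.

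**Figure D1:**
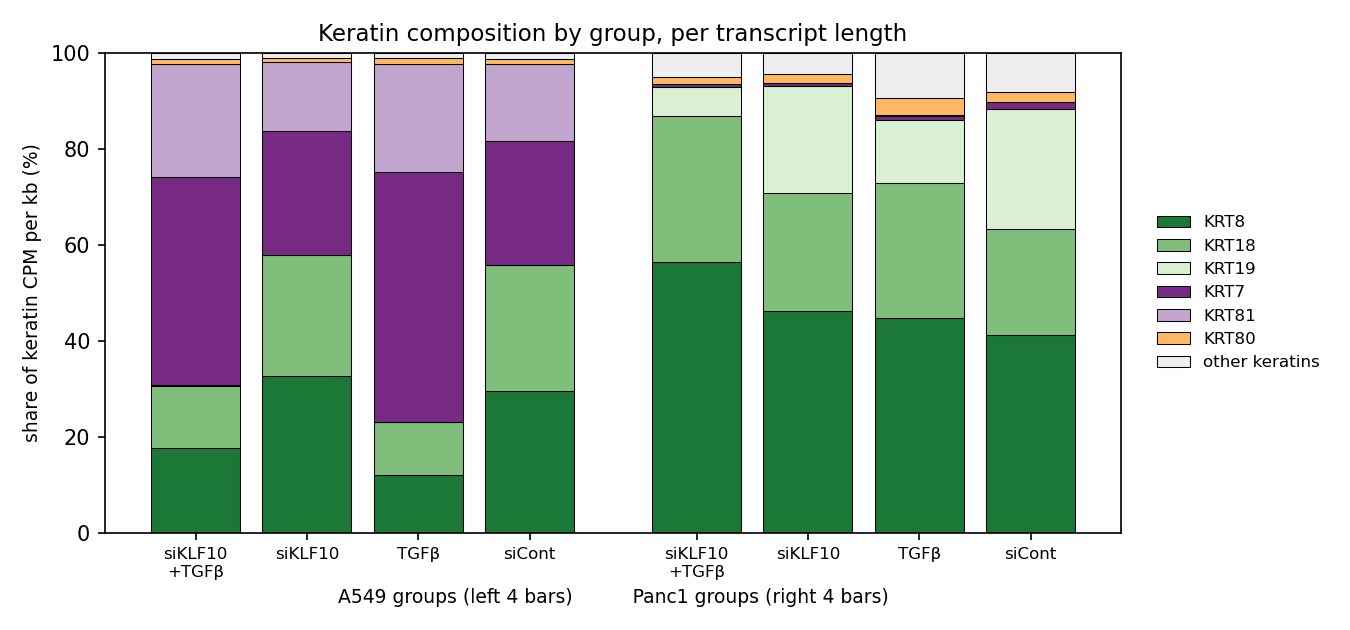
Stacked bars show the mean share (%) of each keratin in the summed keratin CPM per kb of shortest principal transcript, for the 4 groups of A549 (left) and of Panc1 (right). KRT7 took 51.95% in A549 TGFβ and 26.0% in A549 siCont, and KRT19 took 5.99% in Panc1 siKLF10+TGFβ and 25.2% in Panc1 siCont.

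The simple-epithelial pair KRT8 and KRT18 was lower in Panc1 with TGFβ alone, but not with TGFβ and siKLF10 together. KRT8 measured 554, 440 and 456 CPM in siKLF10+TGFβ, 540, 480 and 540 CPM in siKLF10, 239, 252 and 253 CPM in TGFβ, and 511, 427 and 455 CPM in siCont. The 3 TGFβ libraries lay below all 9 others, which overlapped one another. KRT8 fell 1.84-fold in TGFβ against siCont (log2 −0.88 ± 0.0832 SE, adjusted p = 4.20e-08) and was 1.95-fold higher in siKLF10+TGFβ than in TGFβ (0.96 ± 0.0833, adjusted p = 1.85e-08). Here and below, log2 fold changes are given ± SE, adjusted p comes from the edgeR quasi-likelihood fit, adjusted by Benjamini and Hochberg's method over every gene tested, and genes with an adjusted p under 0.05 are called. In these bulk samples fewer cells of a type and less RNA per cell cannot be told apart.

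KRT18, the type I partner of KRT8, followed the same order of groups. It measured 204, 206 and 220 CPM in siKLF10+TGFβ, 219, 225 and 231 CPM in siKLF10, 119, 137 and 122 CPM in TGFβ, and 200, 190 and 212 CPM in siCont. Its TGFβ libraries again lay below all others. KRT18 fell 1.57-fold in TGFβ against siCont (−0.65 ± 0.0634, adjusted p = 3.09e-08) and was 1.67-fold higher in siKLF10+TGFβ than in TGFβ (0.74 ± 0.0635, adjusted p = 6.92e-09). Between siKLF10+TGFβ and siKLF10 the log2 fold change was −0.01 ± 0.0820 for KRT8 (adjusted p = 0.952) and 0.00 ± 0.0625 for KRT18 (adjusted p = 0.974). Between siKLF10 and siCont it was 0.09 ± 0.0820 for KRT8 (adjusted p = 0.405) and 0.10 ± 0.0625 for KRT18 (adjusted p = 0.242). The interaction, which is the response to TGFβ with siKLF10 minus the response without it, was called for both, at 0.87 ± 0.117 for KRT8 and 0.64 ± 0.0890 for KRT18 (adjusted p = 0.000138 for each). KRT8 and KRT18 overlap on opposite strands in GENCODE v29, which also names 50 pseudogenes of KRT8 and 68 of KRT18, so their counts rest on uniquely placed reads and are uncertain.

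KRT19, a type I keratin of ductal epithelium, fell with TGFβ whether or not siKLF10 was present. It measured 46.6, 35.5 and 39.9 CPM in siKLF10+TGFβ, 200, 193 and 204 CPM in siKLF10, 58.2, 56.3 and 57.8 CPM in TGFβ, and 220, 214 and 237 CPM in siCont. The 4 groups did not overlap one another. KRT19 fell 3.82-fold in TGFβ against siCont (−1.93 ± 0.0753, adjusted p = 4.62e-15) and 4.56-fold in siKLF10+TGFβ against siKLF10 (−2.19 ± 0.0779, adjusted p = 5.88e-16). It was also 1.41-fold lower in siKLF10+TGFβ than in TGFβ (−0.49 ± 0.0798, adjusted p = 3.84e-05). A decrease in siKLF10 against siCont (−0.24 ± 0.0707, adjusted p = 0.0119) was lost without siCont C (adjusted p = 0.0577), and in 1 model over all 20 libraries (adjusted p = 0.423). In that model the decrease in siKLF10+TGFβ against TGFβ was lost too (adjusted p = 0.105). The interaction was not called for KRT19 (−0.26 ± 0.106, adjusted p = 0.189).

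KRT80, a type II keratin found in many epithelia, was lowest in Panc1 where siKLF10 and TGFβ were combined. It measured 30.6, 25.0 and 28.1 CPM in siKLF10+TGFβ, 50.4, 46.7 and 44.8 CPM in siKLF10, 43.7, 45.6 and 43.9 CPM in TGFβ, and 47.9, 50.1 and 54.4 CPM in siCont. The siKLF10+TGFβ libraries lay below the other 9. KRT80 was 1.58-fold lower in siKLF10+TGFβ than in TGFβ (−0.66 ± 0.0830, adjusted p = 1.50e-06) and 1.58-fold lower than in siKLF10 (−0.66 ± 0.0834, adjusted p = 1.00e-06). TGFβ against siCont gave −0.17 ± 0.0789 (adjusted p = 0.118), and siKLF10 against siCont gave −0.17 ± 0.0793 (adjusted p = 0.0942). The interaction was −0.49 ± 0.115 (adjusted p = 0.0143), a call lost without siKLF10+TGFβ B (adjusted p = 0.0617). KRT10, a type I keratin of differentiating epidermis, was called in no Panc1 comparison and ranged from 25.5 to 42.3 CPM over the 12 libraries.

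**Figure D2:**
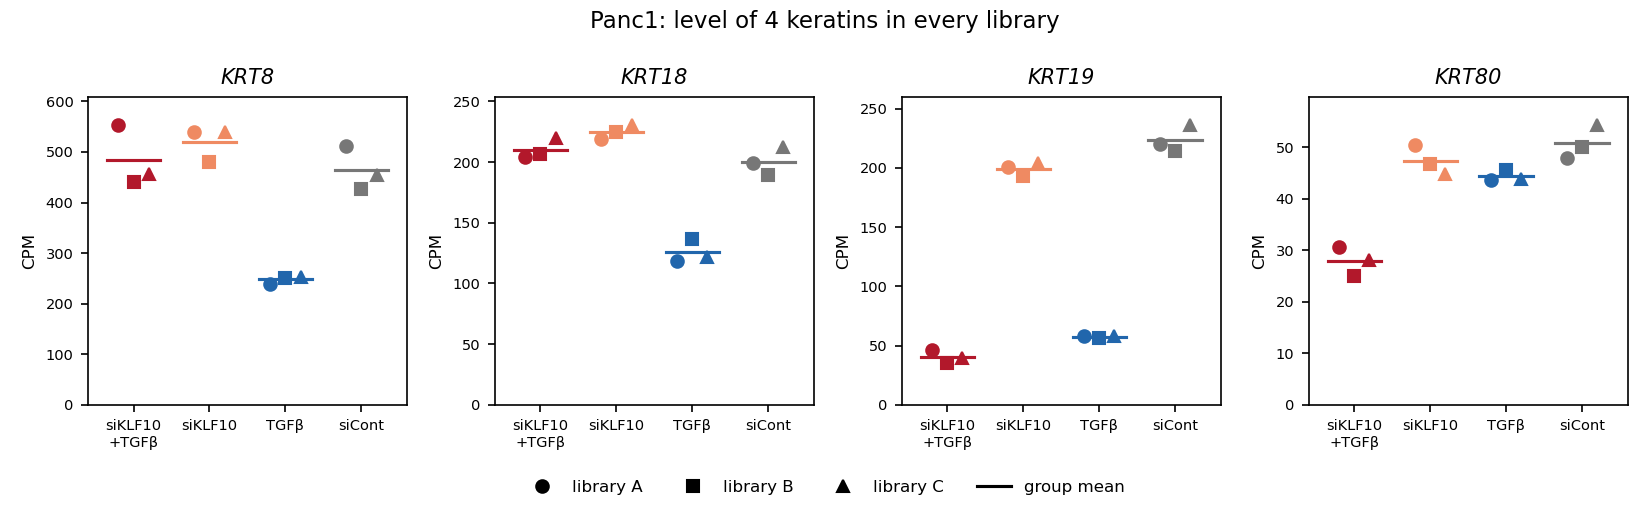
Points show the CPM of each Panc1 library (3 per group, shapes for the letters A, B and C) and lines the group means, for KRT8, KRT18, KRT19 and KRT80. KRT8 and KRT18 are low in TGFβ, KRT19 is low in both groups with TGFβ, and KRT80 is low in siKLF10+TGFβ.

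Apart from KRT10, the basal and layered-epithelium keratins tested were low in Panc1 and had their highest mean in siCont. Library A of siCont stood out for KRT5, KRT17 and KRT13, but not for KRT15, where library C lay close to it. KRT5, the type II keratin of basal cells, measured 5.20, 6.89 and 5.60 CPM in siKLF10+TGFβ, 6.37, 6.05 and 6.60 CPM in siKLF10, 9.30, 9.35 and 5.44 CPM in TGFβ, and 59.9, 21.8 and 22.4 CPM in siCont. KRT17, a type I keratin of basal and activated cells, measured 4.37, 6.17 and 5.26 CPM in siKLF10+TGFβ, 5.11, 5.73 and 4.06 CPM in siKLF10, 7.17, 8.33 and 4.12 CPM in TGFβ, and 27.4, 11.3 and 10.3 CPM in siCont. For both genes every siCont library lay above the other 9, and siCont A was over 2-fold above siCont B and C. KRT7, a type II keratin of ducts, had 4.58 to 4.89 CPM in siKLF10+TGFβ, 5.25 to 6.46 CPM in siKLF10, 2.79 to 6.28 CPM in TGFβ, and 26.2, 10.5 and 11.2 CPM in siCont. KRT13, the type I keratin of mucosa, had 2.04 to 3.21 CPM in siKLF10+TGFβ, 2.39 to 4.08 CPM in siKLF10, 2.66 to 3.69 CPM in TGFβ, and 17.5, 6.70 and 3.87 CPM in siCont, where library C overlapped siKLF10.

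In the test KRT5 fell 4.28-fold in TGFβ against siCont (−2.10 ± 0.441, adjusted p = 0.00686) and 5.75-fold in siKLF10 against siCont (−2.52 ± 0.467, adjusted p = 0.00310). Without siCont A these decreases were 2.71-fold (adjusted p = 3.69e-07) and 3.65-fold (adjusted p = 3.90e-08). KRT17 fell 2.48-fold in TGFβ (−1.31 ± 0.421, adjusted p = 0.0462) and 3.45-fold in siKLF10 (−1.79 ± 0.449, adjusted p = 0.0138), and without siCont A by 1.63-fold (adjusted p = 0.0149) and 2.27-fold (adjusted p = 0.000376). The KRT17 call for TGFβ was lost without TGFβ A, B or C in turn (adjusted p = 0.0972, 0.0647 and 0.130) and with no filter on low counts (adjusted p = 0.0669), and that for siKLF10 was lost without siKLF10 C (adjusted p = 0.0534). KRT7 fell 3.35-fold in TGFβ (adjusted p = 0.0107) and 2.88-fold in siKLF10 (adjusted p = 0.0164), and without siCont A by 2.26-fold (adjusted p = 9.77e-05) and 1.95-fold (adjusted p = 0.000767); the siKLF10 call was lost without siKLF10 B (adjusted p = 0.0562) or C (adjusted p = 0.0592). KRT13 fell 3.10-fold in siKLF10 (adjusted p = 0.0496), a call lost without siCont B (adjusted p = 0.0531) or without siKLF10 A, B or C in turn (adjusted p = 0.114, 0.0831 and 0.141), with upper-quartile scaling and with no filter, while without siCont A the decrease was 1.73-fold (adjusted p = 0.0220). For TGFβ, KRT13 gave −1.55 ± 0.544 (adjusted p = 0.0635) and, without siCont A, a called decrease of 1.63-fold (adjusted p = 0.0413).

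The other layered-epithelium keratins of Panc1 lay lower still. KRT6A, a type II keratin of activated epidermis, averaged 1.47 ± 0.635 CPM in TGFβ and 2.95 ± 1.30 CPM in siCont, and was called lower (−0.98 ± 0.333, adjusted p = 0.0310) until siCont A was left out (adjusted p = 0.245); the call was also lost without TGFβ B (adjusted p = 0.0828) or C (adjusted p = 0.162) and with DESeq2 (adjusted p = 0.0723). In siKLF10 it averaged 0.897 ± 0.192 CPM and was lower than in siCont with siCont A (adjusted p = 0.000975) and without it (adjusted p = 0.00941). KRT15, a type I keratin of basal cells, measured 2.25, 3.53 and 2.21 CPM in siKLF10+TGFβ, 5.11, 5.10 and 5.01 CPM in siKLF10, 3.48, 5.18 and 4.05 CPM in TGFβ, and 7.85, 4.42 and 7.27 CPM in siCont. It was 1.79-fold lower in siKLF10+TGFβ than in siKLF10 (−0.84 ± 0.235, adjusted p = 0.00554), with no overlap of these groups. Its calls in TGFβ against siCont (−0.61 ± 0.202, adjusted p = 0.0259) and in siKLF10+TGFβ against TGFβ (−0.67 ± 0.237, adjusted p = 0.0265) came with overlapping groups, and the first ended without siCont A (adjusted p = 0.140), siCont C (adjusted p = 0.106), TGFβ A (adjusted p = 0.132) or TGFβ C (adjusted p = 0.0806) and with DESeq2 (adjusted p = 0.0588). The second ended without TGFβ B (adjusted p = 0.131), siKLF10+TGFβ A (adjusted p = 0.0952) or siKLF10+TGFβ C (adjusted p = 0.0915). KRT4 was called in no Panc1 comparison and had 0.929 to 5.74 CPM per library. The basal keratin KRT14 had at most 7 counts in any library of either line, and KRT16 at most 8. Both were tested in neither line, so they do not share the high siCont levels of KRT5 and KRT17.

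Markers of squamous basal epithelium that are no keratins moved with the siCont libraries as well. Their 13 genes summed to 61.9 to 73.3 CPM in Panc1 siKLF10+TGFβ, 70.1 to 82.0 CPM in siKLF10, 93.7 to 96.1 CPM in TGFβ and 117 to 156 CPM in siCont. TP63, the transcription factor of basal cells, had 5.31, 2.13 and 1.80 CPM in siCont and at most 1.73 CPM in the other 9 libraries, and TRIM29 had 12.1, 3.78 and 4.14 CPM in siCont and at most 1.96 CPM elsewhere. S100A2 was highest in siCont A with 26.9 CPM, and SERPINB5 was highest there with 4.22 CPM. CALML3 was at 0 in all 20 libraries, and DSC3 had 7.49 to 10.5 CPM in siCont and 6.83 to 11.5 CPM in the other groups. SFN (14-3-3 sigma), the most abundant of the 13, had 33.7 to 45.0 CPM in siKLF10+TGFβ, 44.8 to 57.2 CPM in siKLF10, 64.3 to 65.8 CPM in TGFβ and 78.7 to 79.1 CPM in siCont, so siCont A did not stand apart in it. Of the 13 markers 11 were tested. In TGFβ against siCont 0 were called higher and 5 lower, where 14.0% of all genes were called higher and 15.1% lower, and in siKLF10 against siCont 0 were called higher and 7 lower, where 17.3% and 18.3% of all genes were. Whether RNA from other cells contributed to KRT5, KRT17 and the other keratins of siCont was not tested.

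**Figure D3:**
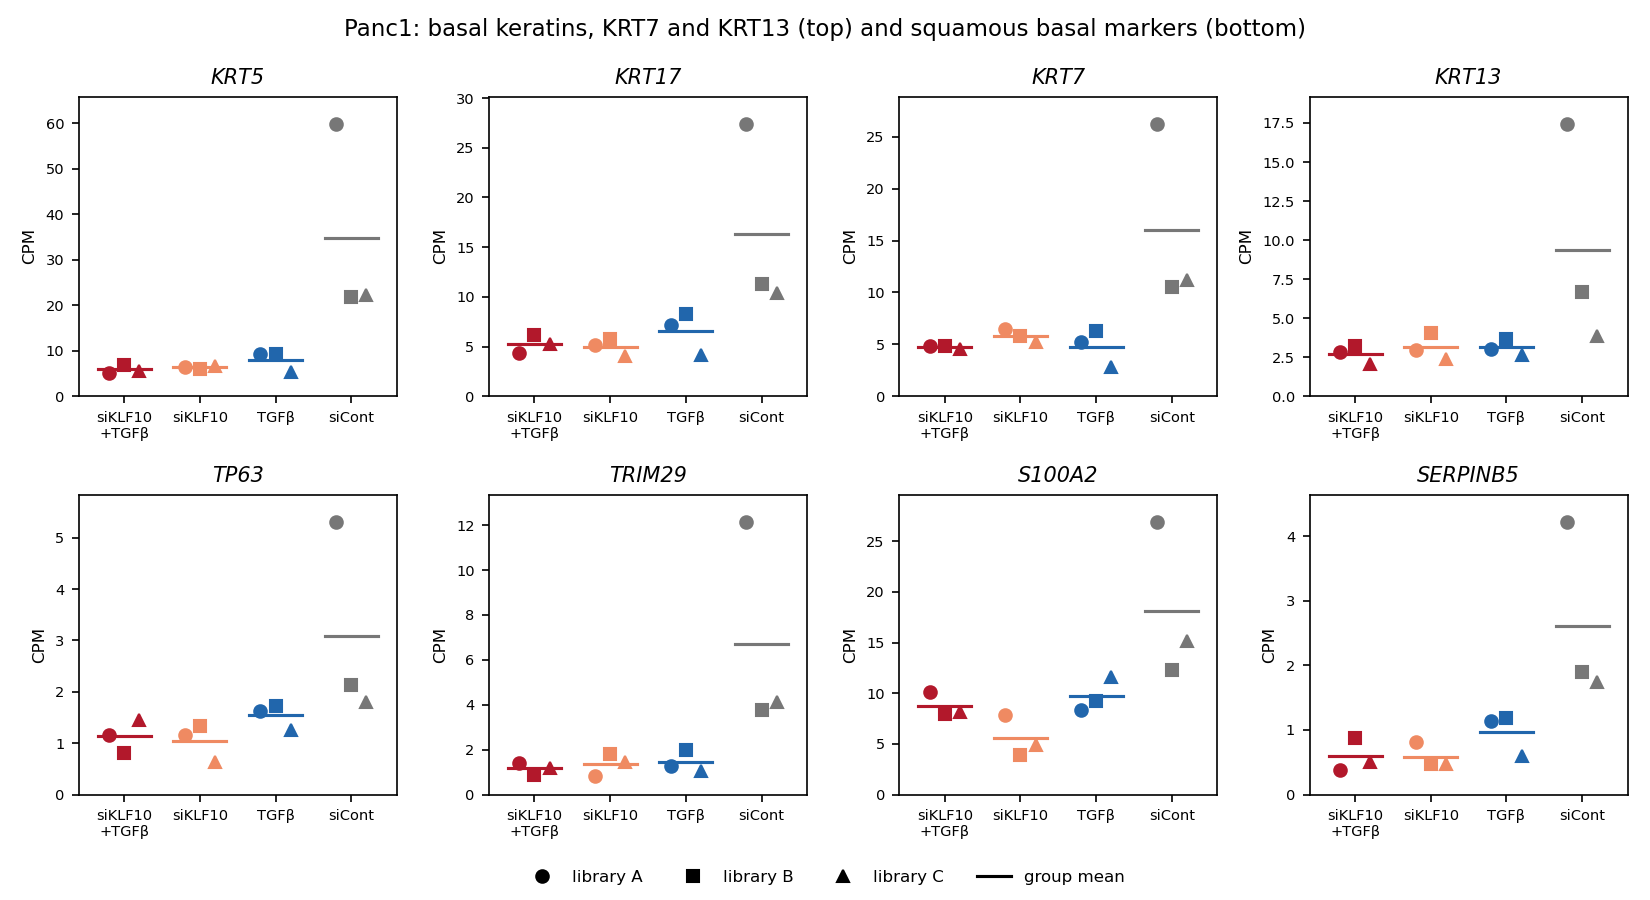
Points show the CPM of each Panc1 library and lines the group means, for KRT5, KRT17, KRT7 and KRT13 (top) and the squamous basal markers TP63, TRIM29, S100A2 and SERPINB5 (bottom). In each panel siCont A is the highest library, at 59.9 CPM for KRT5 and 12.1 CPM for TRIM29.

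In A549 the pair KRT8 and KRT18 fell with TGFβ both alone and together with the siKLF10 label. KRT8 measured 1272 and 1082 CPM in siKLF10+TGFβ, 3093 and 2855 CPM in siKLF10, 947 and 891 CPM in TGFβ, and 2590 and 2544 CPM in siCont, and the 4 groups did not overlap. It fell 2.65-fold in TGFβ against siCont (adjusted p = 8.14e-12) and 2.38-fold in siKLF10+TGFβ against siKLF10 (−1.25 ± 0.0861, adjusted p = 4.51e-11). It was 1.30-fold higher in siKLF10+TGFβ than in TGFβ (0.38 ± 0.0854, adjusted p = 0.00214), a call lost without TGFβ B (adjusted p = 0.0603). KRT18 measured 810 and 609 CPM in siKLF10+TGFβ, 1947 and 1755 CPM in siKLF10, 741 and 649 CPM in TGFβ, and 1883 and 1826 CPM in siCont. Its libraries with TGFβ lay below those without, and each of these sets overlapped within itself. KRT18 fell 2.53-fold in TGFβ against siCont (−1.34 ± 0.128, adjusted p = 5.38e-06) and 2.46-fold in siKLF10+TGFβ against siKLF10 (−1.30 ± 0.128, adjusted p = 5.93e-06). Between siKLF10+TGFβ and TGFβ it gave 0.05 ± 0.127 (adjusted p = 0.817). Between siKLF10 and siCont KRT8 gave 0.22 ± 0.0847 (adjusted p = 0.0706) and KRT18 gave 0.01 ± 0.125 (adjusted p = 0.979).

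KRT7, the most abundant keratin of A549 under TGFβ per kb, moved the other way from KRT8. It measured 2965 and 2806 CPM in siKLF10+TGFβ, 2346 and 2360 CPM in siKLF10, 3842 and 4163 CPM in TGFβ, and 2250 and 2274 CPM in siCont, with no overlap between groups. KRT7 rose 1.86-fold in TGFβ against siCont (0.90 ± 0.0750, adjusted p = 1.38e-09) and 1.30-fold in siKLF10+TGFβ against siKLF10 (0.38 ± 0.0746, adjusted p = 0.000185). It was 1.37-fold lower in siKLF10+TGFβ than in TGFβ (−0.45 ± 0.0745, adjusted p = 9.92e-05), and its interaction was −0.52 ± 0.105 (adjusted p = 0.00404). In 1 model over all 20 libraries the calls in siKLF10+TGFβ against siKLF10 (adjusted p = 0.261), in siKLF10+TGFβ against TGFβ (adjusted p = 0.256) and for the interaction (adjusted p = 0.561) were lost, and without TGFβ B so was the interaction (adjusted p = 0.0589).

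Hair keratins were expressed in A549. KRT81, a type II keratin of the hair cortex, measured 1836 and 1643 CPM in siKLF10+TGFβ, 1465 and 1403 CPM in siKLF10, 1792 and 2044 CPM in TGFβ, and 1562 and 1493 CPM in siCont. Both groups with TGFβ lay above both groups without. KRT81 rose 1.32-fold in TGFβ against siCont (0.40 ± 0.0823, adjusted p = 0.000343) and 1.29-fold in siKLF10+TGFβ against siKLF10 (0.37 ± 0.0823, adjusted p = 0.000766). KRT86, another type II hair keratin, measured 19.5 and 19.2 CPM in siKLF10+TGFβ, 21.0 and 19.8 CPM in siKLF10, 35.0 and 26.1 CPM in TGFβ, and 23.8 and 17.6 CPM in siCont. It was highest in TGFβ, with 1.56-fold more than in siCont (0.65 ± 0.154, adjusted p = 0.00208) and 1.58-fold less in siKLF10+TGFβ than in TGFβ (−0.66 ± 0.153, adjusted p = 0.00360), and both calls were lost without TGFβ A (adjusted p = 0.110 and 0.150). KRT85, also type II, had 5.26 and 6.29 CPM in siKLF10+TGFβ, 5.21 and 4.61 CPM in siKLF10, 5.87 and 9.20 CPM in TGFβ, and 5.05 and 4.64 CPM in siCont. Its rise in TGFβ (0.66 ± 0.222, adjusted p = 0.0178) was lost without TGFβ B (adjusted p = 0.290) or siCont B (adjusted p = 0.0888) and with DESeq2 (adjusted p = 0.0916) or in 1 model over all 20 libraries (adjusted p = 0.0508). KRT83 had 1.68 to 3.94 CPM per A549 library and was called in no A549 comparison. KRT86 overlaps KRT7 on the same strand and KRT81 on the opposite strand in GENCODE v29, and KRT81, KRT83 and KRT86 are near-identical in parts, so the lesser 2 are uncertain beside the abundant KRT7 and KRT81.

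KRT80 was lower in the A549 libraries labelled siKLF10. It measured 129 and 134 CPM in siKLF10+TGFβ, 169 and 172 CPM in siKLF10, 223 and 201 CPM in TGFβ, and 219 and 209 CPM in siCont, and the TGFβ and siCont libraries overlapped while the other groups stood apart. KRT80 was 1.60-fold lower in siKLF10+TGFβ than in TGFβ (−0.68 ± 0.0795, adjusted p = 1.66e-06) and 1.23-fold lower than in siKLF10 (−0.29 ± 0.0797, adjusted p = 0.00376). In siKLF10 against siCont it was 1.25-fold lower (−0.32 ± 0.0790, adjusted p = 0.00690), a call lost without siCont A (adjusted p = 0.115), siKLF10 A (adjusted p = 0.0580) or siKLF10 B (adjusted p = 0.0589). TGFβ against siCont gave 0.07 ± 0.0785 (adjusted p = 0.513), and the interaction was −0.36 ± 0.112 (adjusted p = 0.0590).

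KRT4, the type II keratin of mucosa that pairs with KRT13, had the largest called fall among the keratins of A549. It measured 0.0973 and 0.105 CPM in siKLF10+TGFβ, 34.0 and 30.6 CPM in siKLF10, 0.881 and 0.292 CPM in TGFβ, and 49.7 and 46.1 CPM in siCont. All 4 groups stood apart, but the siKLF10+TGFβ libraries and TGFβ B lay below the floor of 3 counts, which was 0.438 CPM in TGFβ B. The sizes of the KRT4 falls with TGFβ are therefore uncertain. KRT4 fell 69.5-fold in TGFβ against siCont (−6.12 ± 0.233, adjusted p = 2.40e-15) and gave −8.08 ± 0.292 in siKLF10+TGFβ against siKLF10 (adjusted p = 7.63e-16). It was 1.47-fold lower in siKLF10 than in siCont (−0.55 ± 0.118, adjusted p = 0.00210), a call lost without siCont A (adjusted p = 0.0543) and in 1 model over all 20 libraries (adjusted p = 0.119). The call in siKLF10+TGFβ against TGFβ (−2.52 ± 0.744, adjusted p = 0.0145) rests on few counts, and leaving out TGFβ A (adjusted p = 0.504) or siKLF10+TGFβ B (adjusted p = 0.0766) ended it, as did 1 model over all 20 libraries (adjusted p = 0.239). KRT13 had at most 0.433 CPM in any A549 library.

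KRT6A and KRT17, both induced in activated epidermis, were low without TGFβ in A549 and rose with it. Of the 5 activation keratins listed (with KRT6B, KRT6C and KRT16), KRT6C and KRT16 did not pass the filter on low counts. The 3 others were tested and called higher in TGFβ against siCont, where 24.2% of all genes were. KRT6A, KRT6B and KRT17 passed the filter only through libraries with TGFβ. Genes kept in that way are bound to differ between groups, so this count is a description and no support for a response of the set. KRT6A measured 21.4 and 21.1 CPM in siKLF10+TGFβ, 0.530 and 0.577 CPM in siKLF10, 9.30 and 8.62 CPM in TGFβ, and 0.446 and 0.637 CPM in siCont. The groups with TGFβ stood apart from each other and from the rest. KRT6A rose 17.5-fold in TGFβ against siCont (4.13 ± 0.279, adjusted p = 3.85e-11) and 40.3-fold in siKLF10+TGFβ against siKLF10 (5.33 ± 0.249, adjusted p = 5.90e-14), and was 2.39-fold higher in siKLF10+TGFβ than in TGFβ (1.26 ± 0.146, adjusted p = 1.46e-06). Its interaction was not called (1.21 ± 0.558, adjusted p = 0.260). KRT17 measured 3.02 and 1.57 CPM in siKLF10+TGFβ, 0 and 0.144 CPM in siKLF10, 1.08 and 1.17 CPM in TGFβ, and 0.223 and 0.273 CPM in siCont. The siKLF10 libraries lay below the floor of 3 counts and the siCont libraries at it, so the sizes of the KRT17 rises are uncertain. The libraries with TGFβ lay above those without, and KRT17 was called higher in siKLF10+TGFβ than in siKLF10 (5.10 ± 0.806, adjusted p = 1.61e-05), and in TGFβ than in siCont (2.21 ± 0.683, adjusted p = 0.0108) except without siCont A (adjusted p = 0.0690), without TGFβ A (adjusted p = 0.0642) or in 1 model over all 20 libraries (adjusted p = 0.294). The 13 squamous basal markers summed to 239 to 249 CPM in A549 siKLF10+TGFβ, 189 to 190 CPM in siKLF10, 172 to 187 CPM in TGFβ and 145 to 152 CPM in siCont. Most of that sum was SFN, with 122 and 118 CPM in siKLF10+TGFβ and 72.7 and 76.0 CPM in siCont, and DSC3 (desmocollin 3), with 75.0 and 92.3 CPM in siKLF10+TGFβ and 60.6 and 63.9 CPM in siCont. TP63 had 8.95 and 7.81 CPM in siKLF10+TGFβ, 4.06 and 4.18 CPM in siKLF10, 4.80 and 4.82 CPM in TGFβ, and 1.41 and 2.18 CPM in siCont. TRIM29 instead had 3.70 and 2.67 CPM in siKLF10+TGFβ, 5.83 and 6.49 CPM in siKLF10, 3.23 and 2.78 CPM in TGFβ, and 4.68 and 3.27 CPM in siCont, and LY6D had at most 0.389 CPM in any A549 library. Of the 13 markers 8 were tested in A549, with 5 called higher and 0 lower in TGFβ against siCont (24.2% and 23.5% of all genes) and 5 higher and 1 lower in siKLF10+TGFβ against siKLF10 (26.5% and 26.8%). Their part in the KRT6A and KRT17 results was not tested.

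The remaining keratins that were called in A549 had under 4 CPM in every library, apart from KRT10. KRT6B, a close paralogue of KRT6A whose counts are uncertain for that reason, had 3.21 and 2.62 CPM in siKLF10+TGFβ, 0.353 and 1.01 CPM in siKLF10, 0.489 and 0.730 CPM in TGFβ, and 0 in both siCont libraries. Against a floor of 3 counts over the siCont group it was at least 4.97-fold higher in TGFβ (adjusted p = 0.00214) and at least 5.55-fold higher in siKLF10 (adjusted p = 0.00623), and that siKLF10 call was lost without siCont A (adjusted p = 0.0568) or siKLF10 B (adjusted p = 0.0599). KRT6B was also higher in siKLF10+TGFβ than in TGFβ (2.28 ± 0.455, adjusted p = 0.000774). KRT79, a type II keratin of sebaceous ducts, had 1.56 and 2.20 CPM in siKLF10+TGFβ, 0.0883 and 0 CPM in siKLF10, 1.17 and 1.75 CPM in TGFβ, and 0 in both siCont libraries. It was at least 11.9-fold higher in TGFβ than in siCont (adjusted p = 2.63e-05). KRT222 rose in TGFβ (1.43 ± 0.543, adjusted p = 0.0346) and in siKLF10+TGFβ against siKLF10 (1.49 ± 0.360, adjusted p = 0.00147) and against TGFβ (1.40 ± 0.366, adjusted p = 0.00653); the first call was lost without siCont B (adjusted p = 0.196) or TGFβ A (adjusted p = 0.343), with DESeq2 (adjusted p = 0.131) and in 1 model over all 20 libraries (adjusted p = 0.0553), and the last without TGFβ B (adjusted p = 0.0810) or siKLF10+TGFβ B (adjusted p = 0.0800) and with DESeq2 (adjusted p = 0.110). KRT15 fell 4.30-fold in TGFβ (adjusted p = 0.000436), with 0.634 ± 0.343 CPM in TGFβ and 2.73 ± 0.506 CPM in siCont, and 6.21-fold in siKLF10+TGFβ against siKLF10 (adjusted p = 3.32e-05). KRT5 reached 1.15 CPM in siKLF10+TGFβ and was called higher there than in siKLF10 (2.72 ± 0.703, adjusted p = 0.00253), a call lost without siKLF10 A (adjusted p = 0.0831), with DESeq2 (adjusted p = 0.0794) and in 1 model over all 20 libraries (adjusted p = 0.282). KRT10 had 33.2 and 42.4 CPM in TGFβ and 49.0 and 51.2 CPM in siCont, and its called decrease (−0.34 ± 0.122, adjusted p = 0.0251) was lost without siCont A (adjusted p = 0.0848), siCont B (adjusted p = 0.127) or TGFβ A (adjusted p = 0.400), with DESeq2 (adjusted p = 0.0923) and in 1 model over all 20 libraries (adjusted p = 0.153).

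**Figure D4:**
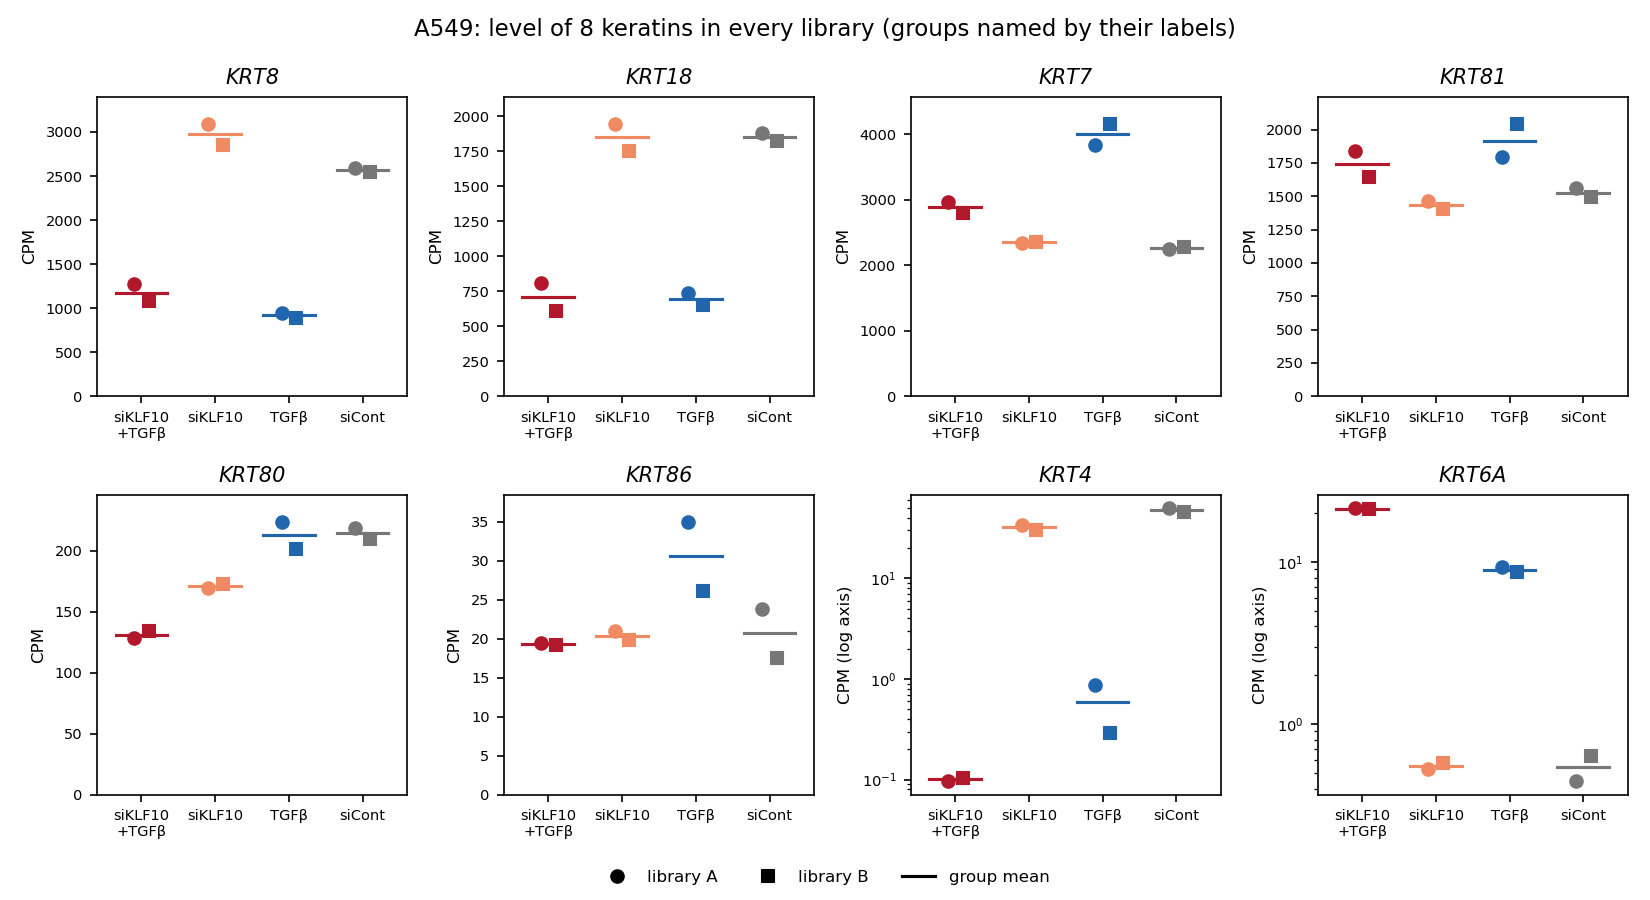
Points show the CPM of each A549 library (2 per group, shapes for the letters A and B) and lines the group means, for 8 keratins; the axes of KRT4 and KRT6A are logarithmic. With TGFβ, KRT8, KRT18 and KRT4 are low and KRT7, KRT81 and KRT6A are high, and KRT80 is low in both groups labelled siKLF10.

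Counted over the keratins tested, those called in TGFβ against siCont were all lower in Panc1 and went both ways in A549. A filter on low counts kept 14 keratins in Panc1 and 19 in A549, with 13 in both, and 35 passed in neither line. A keratin that passed through its high group alone had to differ, so the counts are descriptions. In TGFβ against siCont, 0 of 14 Panc1 keratins were called higher and 8 lower, where 14.0% of all 13218 genes tested were called higher and 15.1% lower; without siCont A 7 keratins were called. Of the 8, KRT5, KRT7 and KRT17 were over 2-fold higher in siCont A than in siCont B and C. The median log2 fold change was −1.01 over these 14 keratins and −0.00485 over all genes. In A549 9 of 19 keratins were called higher and 5 lower, against 24.2% and 23.5% of all 14124 genes, so the lower calls were near the background, and the medians were 0.40 for keratins and −0.0106 for all genes. In siKLF10+TGFβ against siKLF10, 0 of 14 were called higher and 3 lower in Panc1 (22.6% and 22.3% of all genes), where the lower calls were at the background, and 8 of 19 higher and 5 lower in A549 (26.5% and 26.8%).

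For the siRNA, siKLF10 against siCont called 0 of 14 keratins higher and 6 lower in Panc1 (17.3% and 18.3% of all genes) with siCont A, 6 in all without it, and 3 without siKLF10 C. In A549 it called 1 of 19 higher and 2 lower (9.57% and 9.96%), shares near the background, which came to 0 calls in all without siCont A and 1 without siKLF10 B. In siKLF10+TGFβ against TGFβ, 2 of 14 were called higher and 3 lower in Panc1 (21.1% and 20.6%), no more than the background, and 4 of 19 higher and 4 lower in A549 (14.4% and 13.9%), or 13 in all without siKLF10+TGFβ A. The interaction was called for 3 Panc1 keratins, 2 higher (KRT8 and KRT18) and 1 lower (KRT80), where 2.56% of all genes were called higher and 1.86% lower. In A549 it was called for KRT7 alone, which was lower, with 3.26% of all genes higher and 3.23% lower; the count was 0 without TGFβ B, 2 without siCont A or siKLF10+TGFβ B, and 4 without siKLF10+TGFβ A. TGFβ against siCont and siKLF10 against siCont share the siCont libraries, and the 2 comparisons with siKLF10+TGFβ share that group, so their counts are not independent.

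**Figure D5:**
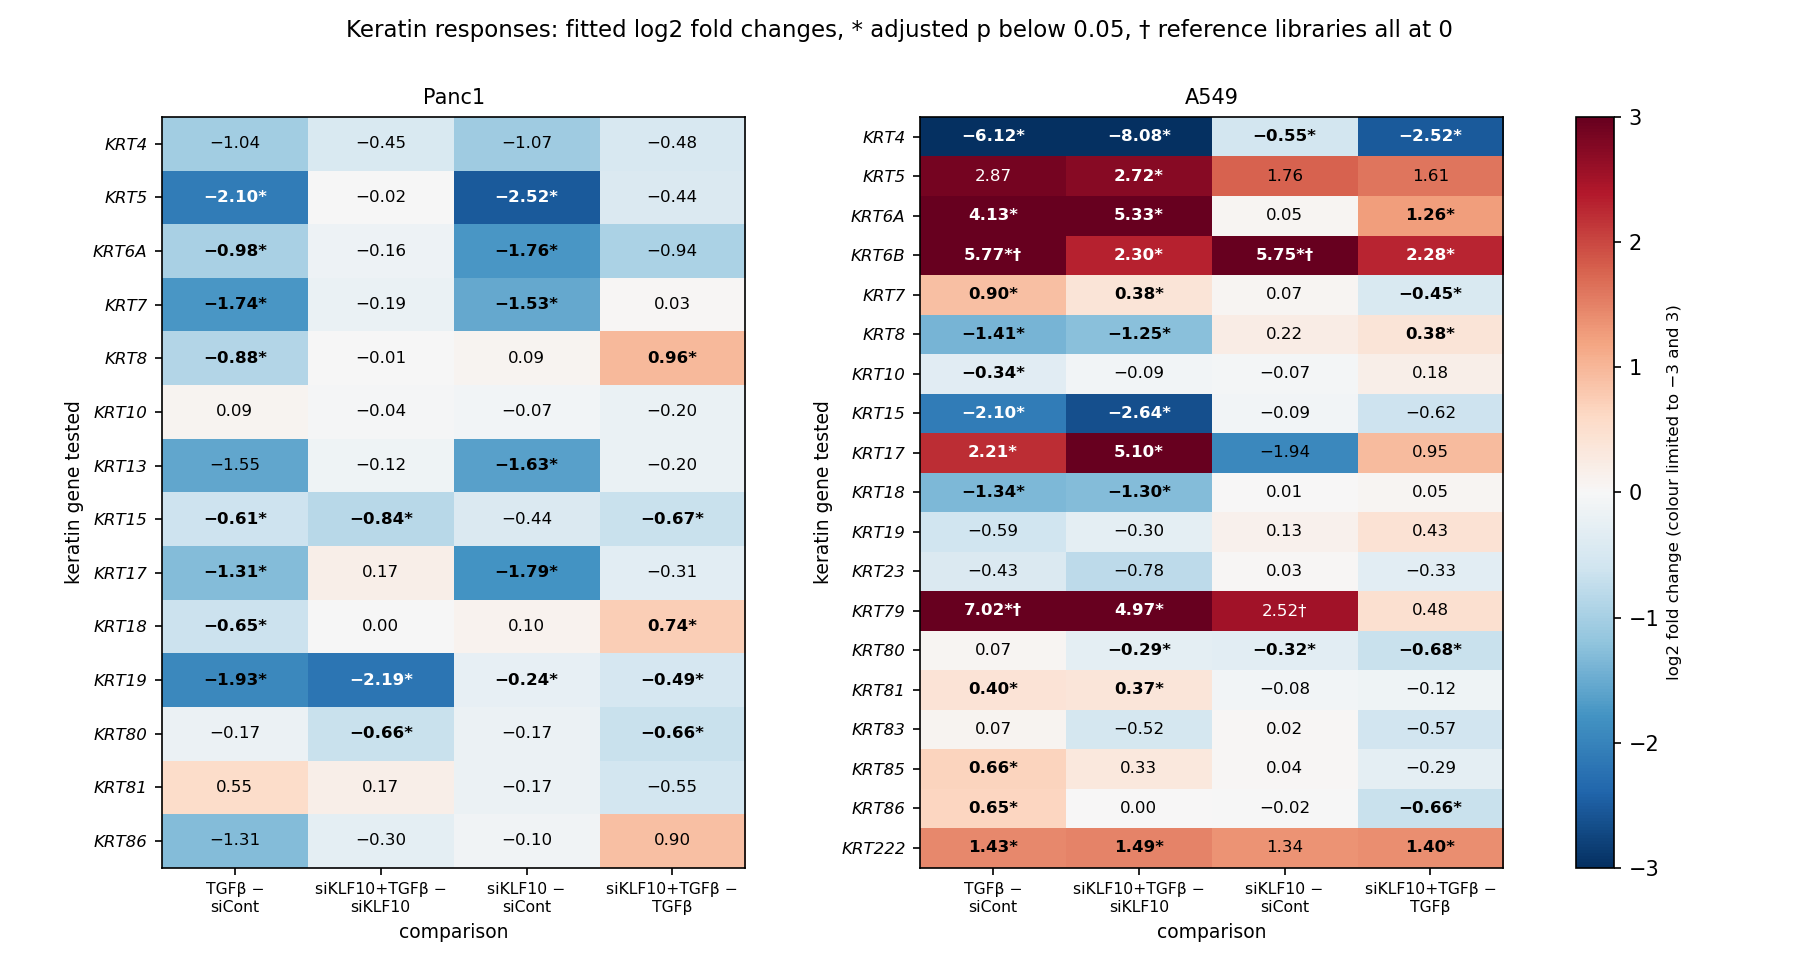
Cells give the fitted log2 fold change of each keratin tested, for 4 comparisons (columns) in Panc1 (left) and A549 (right); an asterisk marks an adjusted p under 0.05, a dagger a comparison whose reference libraries were all at 0, and colour stops at −3 and 3. In the TGFβ against siCont column 8 keratins are called in Panc1, all lower, and 14 in A549, 9 of them higher.

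Between the siCont groups of the lines, keratins were called about as often as all genes, and KRT81, KRT7 and KRT19 were among those far apart. The libraries also differed by line in unique reads outside genes, with 57.6 to 60.1% in A549 and 33.6 to 36.9% in Panc1. The part of this in the level differences was not tested. In 1 model over both lines 22 of the 55 keratins were tested, and in A549 siCont against Panc1 siCont 11 were called higher and 7 lower, where 42.9% of all 15058 genes were called higher and 39.0% lower. KRT81 differed by 10.88 ± 0.145 (adjusted p = 1.51e-34), with 1562 and 1493 CPM in A549 siCont and 0.582, 1.03 and 0.801 CPM in Panc1 siCont. KRT7 was higher in A549 by 7.13 ± 0.291, KRT18 by 3.20 ± 0.0903, KRT8 by 2.46 ± 0.0893 and KRT80 by 2.06 ± 0.0791. KRT19 was lower by 6.38 on the log2 scale in A549, where it had 3.57 and 1.64 CPM in siCont, against 220, 214 and 237 CPM in Panc1 siCont. KRT5, KRT17, KRT13 and KRT15 were lower in A549 as well, among them KRT5 with 0.0743 and 0 CPM in A549 siCont. In Panc1 siCont KRT5, KRT17 and KRT13 were far higher in library A than in B and C, and whether RNA from other cells contributed there was not tested. Between TGFβ groups 13 keratins were called higher in A549 and 5 lower (41.2% and 39.1% of all genes), and KRT6A, with 9.30 and 8.62 CPM in A549 TGFβ and 0.863 to 2.13 CPM in Panc1 TGFβ, was then higher in A549 (2.58 ± 0.277, adjusted p = 4.94e-10), whereas in siCont it was lower there (−2.45 ± 0.427, adjusted p = 4.63e-06).

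The response to TGFβ differed between the lines for 8 of the 22 keratins, 4 with a higher difference in Panc1 and 4 with a lower one, where 17.1% and 13.8% of all genes were called, shares near those of the keratins. KRT4 (5.16 ± 0.748) and KRT6A (−5.03 ± 0.494) differed most among called keratins with counts in all 4 groups, with KRT4 falling and KRT6A rising in A549. KRT7 differed by −2.56 ± 0.432 (adjusted p = 0.000515), falling in Panc1 and rising in A549. KRT8 (0.61 ± 0.127, adjusted p = 0.000367) and KRT18 (0.77 ± 0.127, adjusted p = 1.32e-05) fell in both lines and fell less in Panc1. The response to siKLF10 alone differed for KRT7 (−1.57 ± 0.430, adjusted p = 0.0248), the 1 keratin called lower with 0 called higher (8.59% of all genes higher and 8.65% lower), and leaving out any of 6 libraries ended that call, with adjusted p between 0.0511 and 0.0711. Under TGFβ the siKLF10 effect differed for 3 keratins, 2 higher in Panc1 (KRT8 by 0.55 ± 0.127 and KRT18 by 0.66 ± 0.127) and 1 lower (KRT6A by −2.24 ± 0.439), with 7.52% and 12.3% of all genes called. KLF10 itself differed between the lines in siKLF10 against siCont (−0.68 ± 0.0996, adjusted p = 8.08e-06), so these differences are between libraries labelled alike and not between equal knockdowns.

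Genes listed as linkers that anchor keratin filaments were described next to the keratins. Of 21 such linkers, all tested in Panc1, 3 were called higher and 12 lower in TGFβ against siCont (14.0% and 15.1% of all genes), with a median log2 fold change of −0.27. PPL (periplakin) fell by 1.69 ± 0.0599, ITGB4, the hemidesmosomal integrin β4, by 2.24 ± 0.133 and PKP2 (plakophilin 2) by 1.11 ± 0.0729. In A549 7 of 19 tested linkers were called higher and 5 lower (24.2% and 23.5% of all genes), with a median of 0.10. PPL fell there by 2.53 ± 0.129 and PKP2 by 1.08 ± 0.126, while ITGB4 rose 2.82-fold and DSC2 (desmocollin 2) rose 2.83-fold. In siKLF10+TGFβ against TGFβ, 4 of 21 linkers were higher and 8 lower in Panc1 (21.1% and 20.6% of all genes), and 9 of 19 higher and 1 lower in A549 (14.4% and 13.9%). PKP1, DSG3, DSC3 and SFN stand in this list and among the squamous basal markers, and SFN (14-3-3 sigma) is itself no anchoring protein.

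Regulators of epithelial identity were called in both directions in both lines. Their list mixes factors that promote epithelial programmes with repressors of epithelial genes such as SNAI1 and SNAI2. The counts thus describe neither kind alone. Of 25 such regulators 19 were tested in Panc1, where 3 were called higher and 10 lower in TGFβ against siCont (14.0% and 15.1% of all genes), and 23 in A549, where 6 were called higher and 13 lower (24.2% and 23.5%), so the higher calls were near the background in both. SNAI1 (2.70 ± 0.141) and SNAI2 (1.81 ± 0.128), which repress epithelial genes through E-boxes, rose in Panc1, and KLF4 (−1.60 ± 0.194) and TFAP2C (−1.42 ± 0.120), which promote epithelial programmes, fell there. In A549 SNAI2 rose by 2.89 ± 0.307, and EHF (−3.04 ± 0.204) and GRHL3 (−2.65 ± 0.445) fell. In siKLF10+TGFβ against TGFβ 2 of 19 were higher and 5 lower in Panc1, among them SNAI1 (0.76 ± 0.111, higher) and FOXA2 (−1.07 ± 0.0989, lower), where 21.1% and 20.6% of all genes were called, and 7 of 23 higher and 3 lower in A549 (14.4% and 13.9%).

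Of 14 other intermediate filament genes 7 were tested in Panc1, with 1 called higher (VIM) and 1 lower (LMNA, −0.52 ± 0.0759) in TGFβ against siCont (14.0% and 15.1% of all genes), and 11 in A549, with 4 higher and 3 lower (24.2% and 23.5%). VIM, the filament of mesenchymal cells, averaged 6377 ± 516 CPM in Panc1 siKLF10+TGFβ, 3841 ± 161 CPM in siKLF10, 12610 ± 642.5 CPM in TGFβ and 9128 ± 699 CPM in siCont. In A549 it averaged 1002 ± 119 CPM in siKLF10+TGFβ, 567 ± 12.4 CPM in siKLF10, 1754 ± 52.4 CPM in TGFβ and 773 ± 11.9 CPM in siCont. It rose in TGFβ against siCont by 0.49 ± 0.0709 in Panc1 and by 1.26 ± 0.0818 in A549 on the log2 scale. In siKLF10+TGFβ against TGFβ it was lower by 0.98 in Panc1 (adjusted p = 4.76e-10) and by 0.79 in A549 (adjusted p = 2.92e-07). In Panc1 it was lower in siKLF10 than in siCont too (−1.32 ± 0.0719, adjusted p = 7.51e-12), a comparison in which KRT8 and KRT18 were not called.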

How the data were processed

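Poly(A) RNA was sequenced with a directional kit, per the labels' protocols. The submitters' processing notes name TopHat, Bowtie2, HTSeq 0.6.0, DESeq2 and the build hg19, with the strand option of HTSeq not given in the sources used here. The deposited files hold raw read counts per gene, 23368 genes per library, and 5 summary lines per table entered neither totals nor fits. They show 44.3 to 53.9% of alignment lines as not unique, and 33.6 to 36.9% (Panc1) or 57.6 to 60.1% (A549) of unique reads as in no gene.

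Each line was fitted over its 4 groups with edgeR 4.0.16 (R 4.3.3) by the quasi-likelihood test after TMM scaling, with genes kept by a minimum count of 10 and a minimum total of 15, and both lines together for line differences. Printed SE are the log2 fold change divided by the root of the F statistic. For keratins of at least 5 CPM in a group, values are given by library or, in places, as ranges or means, and not for every group. Other keratins are given mostly by calls. At most 4 called genes are named per further list. The keratins, the lists and the tests were chosen with earlier results of these data known. Alternatives were other scaling, no filter, DESeq2 1.42.0, 1 model over 20 libraries, a minimum fold of 2, a replicate block, and each library left out. The fitting was run on simulated counts with the same spread for every gene and no outlying library. That run cannot show how the fit treats genes with an outlying library, such as KRT5 in Panc1 siCont.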

Additional observations from a re-analysis of the deposited data

Results flagged for a closer look

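Effects that differed between conditions or lines, each by a test of the difference itself (edgeR, adjusted over all genes), were these. In Panc1 the response to TGFβ with siKLF10 minus that without it was 0.8706 for KRT8, 0.6437 for KRT18 and −0.4914 for KRT80 on the log2 scale. In A549 it was −0.5177 for KRT7, which was lost in 1 model over all 20 libraries (adjusted p = 0.561).

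The Panc1 response to TGFβ minus the A549 response was 5.161 for KRT4, −5.025 for KRT6A, −2.564 for KRT7, 0.6079 for KRT8, 1.576 for KRT15, 0.7724 for KRT18, −6.1 for KRT75 and −1.869 for KRT86. KRT75 was at 0 in both A549 siCont libraries, so its value depends on the prior count and is no estimate of size, and its call was lost without any single A549 TGFβ or siCont library (adjusted p between 0.0742 and 0.113) and with no filter on low counts (adjusted p = 0.0549). The KRT15 call was lost without A549 TGFβ A (adjusted p = 0.298) or A549 siCont B (adjusted p = 0.0892), and the KRT86 call without Panc1 siCont A (adjusted p = 0.0740) or Panc1 TGFβ C (adjusted p = 0.0555). For siKLF10 the Panc1 effect minus the A549 effect was −1.567 for KRT7. For siKLF10 under TGFβ it was −2.238 for KRT6A, 0.5524 for KRT8 and 0.6603 for KRT18. The A549 libraries labelled siKLF10 did not show lower KLF10 without TGFβ, and the part of this in the line differences was not tested.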

How the results depend on the processing

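Of 1229 alternative values of 121 tested results, 1118 kept direction and side of the threshold, 94 lost a call, 1 gained one and 16 changed sign; 35 of 112 called results lost their call under some alternative. The cause was not tested. At a fold of at least 2, fewer keratins were called: 4 in Panc1 TGFβ against siCont, 0 in siKLF10+TGFβ against TGFβ, 1 in siKLF10+TGFβ against siKLF10 and 0 in the interaction; 9 in A549 TGFβ against siCont, 1 in siKLF10 against siCont, 4 in siKLF10+TGFβ against TGFβ and 0 in the interaction; and 1 in the line difference of siKLF10 under TGFβ. Panc1 siKLF10+TGFβ against siKLF10 called 5 with no filter, 5 in 1 model over 20 libraries and 5 with DESeq2, against 3. The A549 interaction called 2 with upper-quartile scaling, 2 with no filter and 0 in 1 model over 20 libraries, against 1. The line difference of siKLF10 called 2 with no filter and 2 with DESeq2, against 1, and that under TGFβ called 9 with no filter and 5 with DESeq2, against 3.

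With a library left out, calls ranged from 3 to 6 in Panc1 siKLF10 against siCont (3 without siKLF10 C), 0 to 3 in A549 siKLF10 against siCont (0 without siCont A, 1 without siKLF10 B), 6 to 13 in A549 siKLF10+TGFβ against TGFβ (6 without TGFβ A, 13 without siKLF10+TGFβ A), 0 to 4 in the A549 interaction (0 without TGFβ B, 2 without siCont A or siKLF10+TGFβ B, 4 without siKLF10+TGFβ A) and 0 to 1 in the line difference of siKLF10 (0 without Panc1 siKLF10 B or C or any of the A549 siCont and siKLF10 libraries). Sign changes were confined, among these results, to uncalled values near 0. In Panc1 siKLF10+TGFβ against siKLF10, KRT8 ranged from −0.1154 to 0.05903 with a library left out and was 0.0003048 with DESeq2, and KRT18 ranged from −0.03931 to 0.02131 and was 0.0001712 with no filter and 0.006095 with DESeq2. In A549 siKLF10 against siCont KRT18 ranged from −0.09008 to 0.1037 and was −0.00249 with no filter and −0.01903 in 1 model over 20 libraries. KRT80 in A549 TGFβ against siCont ranged from −0.01958 to 0.1476 and was −0.005091 in that model.

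The replicate letters were also fitted as a block. Same-lettered libraries deviated together (r above 0.1) in 2 of 18 Panc1 pairs and 6 of 12 A549 pairs, and 3 of 12 Panc1 and 6 of 8 A549 libraries correlated best with their own letter, so the letters were not taken as pairs. With the replicate block 2 keratins were called in the A549 interaction, against 1, and KRT8 was called in A549 siKLF10 against siCont (adjusted p = 0.0338). In the line comparisons the block ended the calls of KRT10 in siCont (adjusted p = 0.131) and KRT23 in TGFβ (adjusted p = 0.0877). At 3 counts per library the floor limits what can be said of the 25 keratins with 1 to 9 counts at most in any library.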

Other observations

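Levels of KRT19, KRT20 and KRT23 in A549, and of KRT75 in Panc1, are given here. In each A549 group KRT19 and KRT23, both type I, were higher in the same library as each other: KRT19 measured 4.38 and 0.891 CPM in siKLF10+TGFβ A and B, 1.77 and 4.61 CPM in siKLF10, 0.392 and 3.51 CPM in TGFβ, and 3.57 and 1.64 CPM in siCont. KRT23 measured 1.65 and 0 CPM in siKLF10+TGFβ, 0.706 and 1.73 CPM in siKLF10, 0.392 and 1.31 CPM in TGFβ, and 1.78 and 0.273 CPM in siCont. Neither was called in any comparison within A549, while both were called between the lines, KRT23 in the TGFβ groups alone, a call lost without any single Panc1 TGFβ library or without A549 TGFβ B (adjusted p between 0.0704 and 0.233).

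KRT20, a type I keratin of gut epithelium, was at 0 in all 4 A549 libraries with TGFβ. Without TGFβ it measured 0.794 and 1.01 CPM in the libraries labelled siKLF10, against 0.149 and 0.182 CPM in siCont. KRT75, a type II keratin of the hair follicle, had at most 0.160 CPM in Panc1 siKLF10+TGFβ, 0.557 to 0.707 CPM in siKLF10, 0.0664 to 0.236 CPM in TGFβ and 0.710 to 0.945 CPM in siCont. KRT20 and KRT75 passed the low-count filter in the fit over both lines but not in the fit of either line, and of these KRT75 was called there, lower in A549 siCont than in Panc1 siCont.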
